A study of Mus musculus with 6 samples.

Results

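The genes of branched-chain amino acid catabolism described here are 10 of the 27021 genes in the deposited table, chosen by name: the aminotransferases Bcat1 and Bcat2, the dehydrogenase subunits Bckdha, Bckdhb and Dbt with their kinase Bckdk and phosphatase Ppm1k, and the leucine enzymes Ivd, Mccc1 and Auh. All 10 passed the filter on low counts. RNA was sequenced from the whole hearts of 3 mice of genotype Immtfl/fl-Myh6-MCM and of 3 control mice of genotype Immt+/+-Myh6-MCM, each giving 1 library, to ask which transcripts change when the heart has lost Immt. By their labels both groups carried Myh6-MCM, a tamoxifen-activated Cre recombinase expressed from the cardiac Myh6 promoter. In the Immtfl/fl-Myh6-MCM hearts, counts of Esr1 given below go against this label, while low counts of Immt go with it. Both groups received 3 tamoxifen injections at 6 weeks of age, and hearts were taken 20 weeks later, at 26 weeks of age, when the Immtfl/fl-Myh6-MCM hearts were failing. Immt encodes Mic60, a core protein of the complex that shapes the inner mitochondrial membrane.

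Leucine, isoleucine and valine are broken down mainly inside mitochondria. An aminotransferase first moves the amino group to 2-oxoglutarate, which gives glutamate and a branched-chain keto acid. In most tissues, the heart included, this is the mitochondrial enzyme encoded by Bcat2, while the cytosolic enzyme encoded by Bcat1 is best known from brain, embryonic tissue and tumors. The branched-chain keto acid dehydrogenase then removes carbon dioxide irreversibly. It is built from the E1 alpha subunit (Bckdha), the E1 beta subunit (Bckdhb), the E2 core (Dbt) and the E3 subunit (Dld), and it is switched off when Bckdk phosphorylates E1 alpha and switched on when Ppm1k removes the phosphate. After that step each amino acid has its own set of enzymes, of which Ivd, Mccc1 and Auh act in order on leucine.

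The promoters of Bcat1, the member that rose, and of 3 members that fell together are shown first: Ppm1k and Ivd, which fell furthest, and Mccc1, which like Ivd holds several CCAAT boxes. Promoters of 9 of the 10 genes matched the RefSeq table for GRCm38.p6, which gives 300 bases around each start, most of them upstream of it. Dbt had no entry. In the sequences below, capitals mark CCAAT or its reverse complement ATTGG, the box bound by nuclear factor Y.
Bcat1 (chr6:145076108-145076407, minus strand): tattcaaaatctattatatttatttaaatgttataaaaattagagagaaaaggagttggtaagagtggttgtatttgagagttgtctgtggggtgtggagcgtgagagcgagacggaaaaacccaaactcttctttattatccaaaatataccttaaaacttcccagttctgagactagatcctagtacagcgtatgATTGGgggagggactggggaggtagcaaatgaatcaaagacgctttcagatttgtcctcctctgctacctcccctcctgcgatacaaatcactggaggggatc
Ppm1k (chr6:57535438-57535737, minus strand): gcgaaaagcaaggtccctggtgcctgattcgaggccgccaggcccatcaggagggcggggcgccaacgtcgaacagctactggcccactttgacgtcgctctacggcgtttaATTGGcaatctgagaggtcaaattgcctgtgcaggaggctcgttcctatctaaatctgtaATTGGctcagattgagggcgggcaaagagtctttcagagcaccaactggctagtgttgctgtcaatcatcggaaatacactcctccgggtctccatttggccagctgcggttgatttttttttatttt
Ivd (chr2:118861744-118862043, plus strand): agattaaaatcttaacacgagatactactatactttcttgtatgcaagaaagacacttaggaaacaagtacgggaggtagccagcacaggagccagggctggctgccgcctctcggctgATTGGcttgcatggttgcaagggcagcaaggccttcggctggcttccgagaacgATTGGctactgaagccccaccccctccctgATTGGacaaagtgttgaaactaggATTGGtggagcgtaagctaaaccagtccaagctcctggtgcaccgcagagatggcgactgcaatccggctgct
Mccc1 (chr3:36000629-36000928, minus strand): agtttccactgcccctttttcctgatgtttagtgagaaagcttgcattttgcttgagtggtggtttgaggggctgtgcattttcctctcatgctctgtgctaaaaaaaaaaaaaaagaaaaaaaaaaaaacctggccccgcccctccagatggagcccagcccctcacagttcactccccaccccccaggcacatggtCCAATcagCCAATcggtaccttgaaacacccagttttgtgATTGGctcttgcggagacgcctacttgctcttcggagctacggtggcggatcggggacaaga
The Ivd promoter held 4 such boxes, Mccc1 held 3, Ppm1k held 2 and this start of Bcat1 held 1. Bckdhb held 2 at its upstream start, Bckdk held 1, and Bcat2, Bckdha and Auh held 0. Among all 32851 promoters of the table, 37.4% held at least 1, 3.37% held at least 3 and 1.06% held at least 4. The CCAAT box was chosen after the sequences had been read. The composite element of ATF4 and C/EBP (TGATGNAA) and the E-box CACGTG, searched on both strands, had 0 matches in the 12 member promoters and were present in 3.97% and 7.15% of all promoters. Bcat1 has a second RefSeq start, 27372 bases downstream of the annotated gene start, and counts per gene do not separate the starts. These matches are descriptions of the letters in these windows and not binding sites.

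Library totals ran from 42301627 to 44151674 counts in control hearts and from 49793058 to 53251529 counts in Immtfl/fl-Myh6-MCM hearts. The paper used both sexes of the Myh6-MCM mice. Counts of Xist were 11605 in control heart 3, 20811 in Immtfl/fl-Myh6-MCM heart 3 and 4 to 16 in the other hearts. What sets heart 3 of a group apart below therefore cannot be told apart from Xist expression. Immt itself was at 663, 453 and 524 CPM (counts scaled to the library size, with TMM factors) in the control hearts and at 23.0, 28.7 and 39.2 CPM in the Immtfl/fl-Myh6-MCM hearts, which left 5.55% of the control mean. Mitochondrially encoded genes took 19.5% to 23.3% of the counts in control hearts and 8.20% to 8.85% in Immtfl/fl-Myh6-MCM hearts. The 7 cardiomyocyte markers summed to 64810 to 69697 CPM in control hearts and 26706 to 38531 CPM in Immtfl/fl-Myh6-MCM hearts, and 5 of them fell. Of the 6 fibroblast, 5 endothelial and 6 macrophage markers, 0 passed both thresholds in either direction, with summed levels of 890.1 to 1220 against 773 to 1143 CPM, 879 to 971 against 602 to 788 CPM, and 126 to 170.5 against 139.8 to 334 CPM. Of 4 mural markers, Myh11 fell (42.3 to 82.6 against 16.4 to 33.5 CPM), and the 4 summed to 1113 to 1181 against 513 to 762 CPM. Of the neutrophil markers, S100a8 and S100a9 rose, from at most 0.482 CPM in control hearts to at most 4.81 CPM in Immtfl/fl-Myh6-MCM hearts, while Ly6g was at most 0.0535 CPM in any heart. The lymphocyte marker Cd3e was at 20.9 CPM in Immtfl/fl-Myh6-MCM heart 3 and at most 1.39 CPM in the other hearts. The other lymphocyte markers were low in that heart, with Cd4 at 0.490, Cd8a at 0.326, Ms4a1 at 0.0725 and Cd79a at 0 CPM. Mybpc2, a marker of fast skeletal muscle, fell, with at most 50.3 CPM in control hearts and at most 4.46 CPM in Immtfl/fl-Myh6-MCM hearts, and its groups did not overlap. Myh2, the other skeletal muscle marker found, was at most 0.134 CPM in any heart. The part of these cell types in the values below was not tested. In whole hearts, fewer cardiomyocytes and less RNA per cardiomyocyte cannot be told apart. Counts assigned to Esr1, whose ligand-binding sequence is part of the MCM protein, were 144479 to 165400 in control hearts and 71 to 323 in Immtfl/fl-Myh6-MCM hearts. Immt was low in these same hearts. In the paper's design its deletion needs both the floxed alleles and the tamoxifen-activated Cre. The low Immt therefore goes with both parts of the label, while the Esr1 counts do not go with the Myh6-MCM part. Whether these hearts still carried the transgene or had lost its RNA was not tested. Transgene RNA and the Immt genotype cannot be told apart in any comparison that follows.

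Of the 10 genes, Bcat1 rose, 5 fell (Ppm1k, Ivd, Bckdhb, Dbt and Mccc1) and 4 did not pass both thresholds (Bcat2, Bckdha, Bckdk and Auh). A gene was called when the Benjamini-Hochberg adjusted p of edgeR's quasi-likelihood test was under 0.05 and its log2 fold change (log2FC) was over 1 or under -1. Of the 17146 genes tested, 9.91% were higher and 10.6% were lower by that rule. By adjusted p alone, 1 member was higher and 9 were lower, against 19.9% higher and 18.5% lower among all genes. The 3 hearts of each group did not overlap for 10 of 10 members, against 52.8% of all genes. The median log2FC of the members was -1.07, against -0.0012 over all genes tested. Summed over the 10 genes, the level was 1149 to 1391 CPM in control hearts and 531 to 537 CPM in Immtfl/fl-Myh6-MCM hearts.

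**Figure D1:**
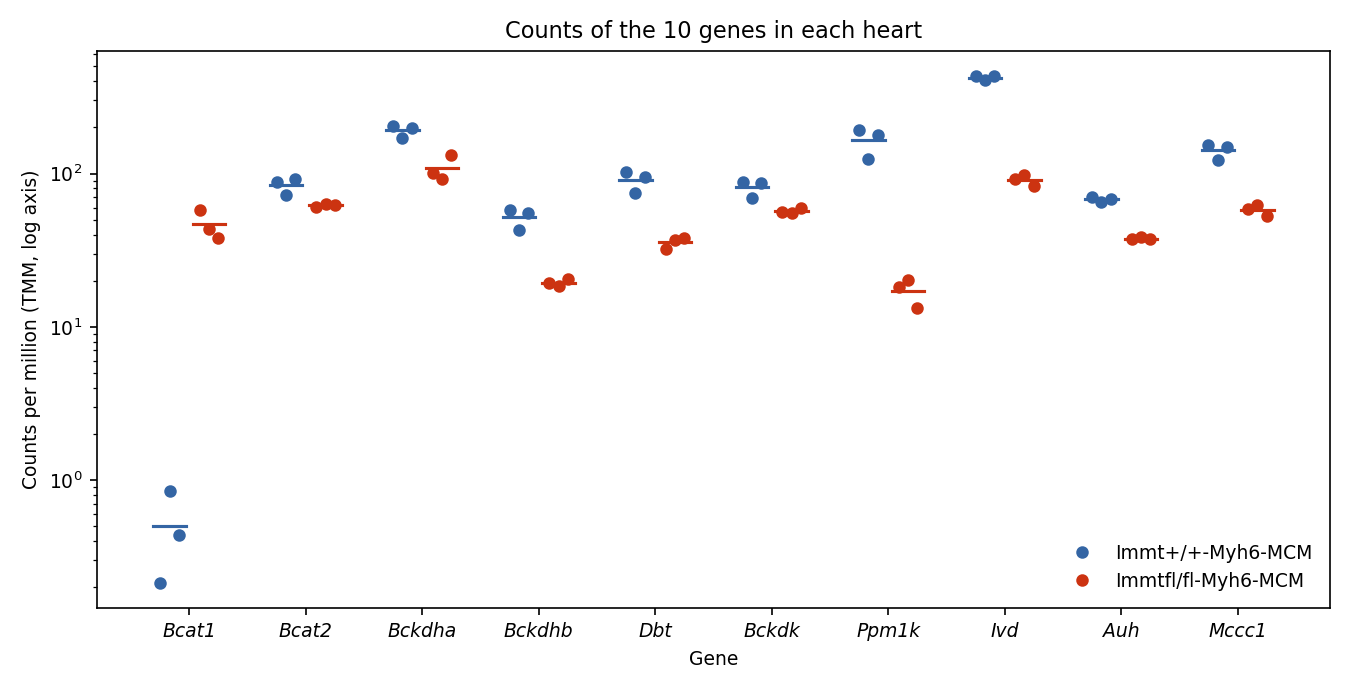
Each point is the level of a gene in 1 heart, in TMM-scaled CPM on a log axis, and each bar is the mean of 3 hearts. The control hearts (blue) lie above the Immtfl/fl-Myh6-MCM hearts (red) for 9 genes and below them for Bcat1.

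Bcat1, the cytosolic aminotransferase, was close to absent in control hearts. It lies on chromosome 6 of GRCm38 from 144993835 to 145076184, on the minus strand. Its raw counts were 8, 34 and 18 in controls against 3430, 2389 and 2083 in Immtfl/fl-Myh6-MCM hearts. On the scaled axis these were 0.214, 0.843 and 0.440 CPM against 58.2, 43.7 and 37.8 CPM. The lowest Immtfl/fl-Myh6-MCM heart was far above the highest control heart. The log2FC was 6.52 ± 0.408 (SE, edgeR adjusted p = 1.31e-05), which is 92.1-fold. Control heart 2 held the most Bcat1 of the 3 control hearts, and without it the log2FC was 7.12. Of its 9322 exonic bases, 337 overlap an antisense gene (Gm26666).

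Bcat2, the mitochondrial aminotransferase (chromosome 7, 45570153 to 45589711), was at 88.1, 72.6 and 92.6 CPM in the control hearts and at 60.3, 63.8 and 62.7 CPM in the Immtfl/fl-Myh6-MCM hearts. The groups did not overlap, and the hearts lacking Immt were much closer to each other than the control hearts were. Its log2FC was -0.44 (95% interval -0.72 to -0.16, adjusted p = 0.0206 from edgeR), short of the fold threshold. Leaving out control heart 1 or 3, or Immtfl/fl-Myh6-MCM heart 1 or 2, raised the adjusted p of Bcat2 to between 0.0544 and 0.0846. Of its 3900 exonic bases, 622 overlap the antisense gene 0610005C13Rik, which had 8 to 27 counts in any heart.

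The balance between the aminotransferase transcripts moved from almost entirely Bcat2 to a mixture. Bcat1 made up 0.242%, 1.15% and 0.473% of the Bcat1 and Bcat2 counts in the control hearts and 49.1%, 40.7% and 37.6% in the Immtfl/fl-Myh6-MCM hearts. The difference of 41.8 percentage points was at the smallest p that 3 hearts against 3 allow (two-sided exact permutation test, p = 0.1, or 0.133 adjusted over the 4 ratios tested). Per kilobase of gene length, the share was 0.102%, 0.483% and 0.198% against 28.8%, 22.3% and 20.1%, since the annotated Bcat1 is the longer gene (9322 against 3900 exonic bases). On either scale Bcat2 remained the more abundant aminotransferase transcript in all 3 hearts.

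**Figure D2:**
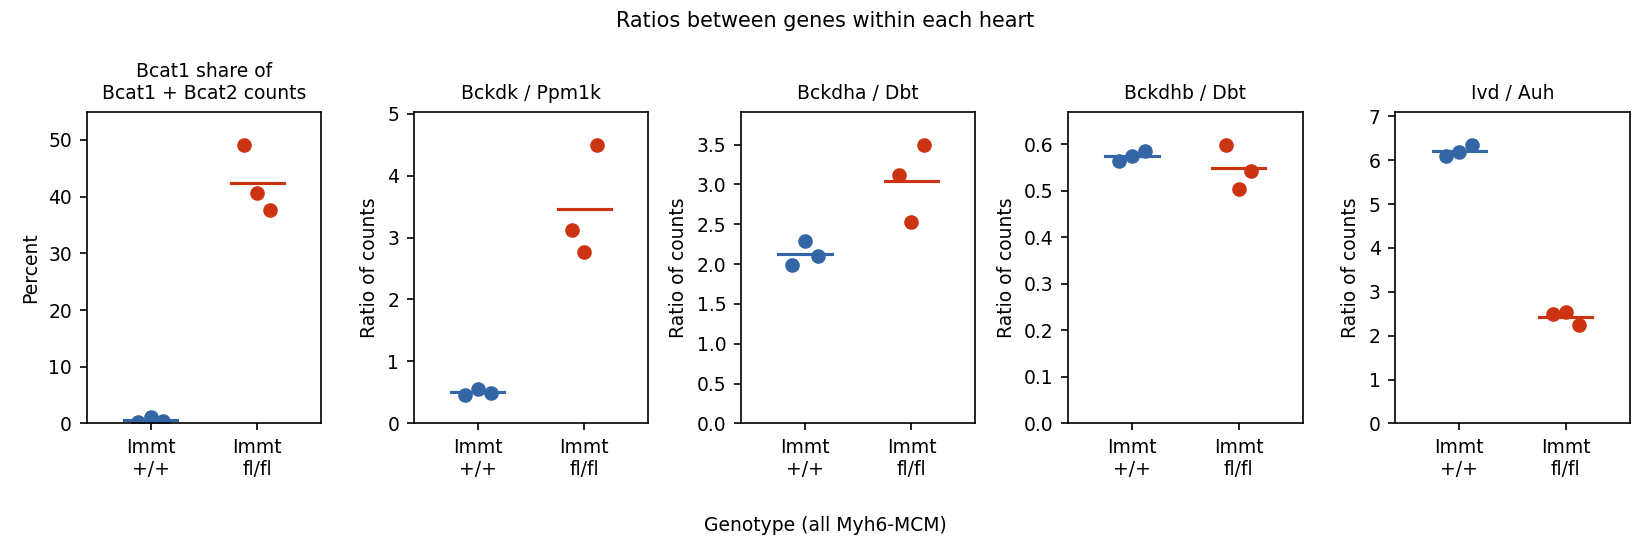
Each point is 1 heart, each bar is the mean of 3 hearts, and the panels show the Bcat1 percentage and 4 ratios of raw counts between genes of the same library. The groups are apart for the Bcat1 share (at most 1.15% against at least 37.6%), for Bckdk to Ppm1k, for Bckdha to Dbt and for Ivd to Auh, and they overlap for Bckdhb to Dbt.

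The E1 and E2 genes of the dehydrogenase were lower by unequal amounts, and Bckdha did not pass the fold threshold. Dld, the E3 subunit, is given below with the later steps. Bckdhb, the E1 beta subunit (chromosome 9, 83925145 to 84124240), was at 58.0, 42.9 and 55.6 CPM in the control hearts and at 19.3, 18.4 and 20.6 CPM in the Immtfl/fl-Myh6-MCM hearts. It fell with a log2FC of -1.42 ± 0.146 (SE, edgeR adjusted p = 0.000103), so that 37.2% of the control mean remained. Dbt, the E2 core that passes the acyl group to coenzyme A (chromosome 3, 116513070 to 116549981), was at 103, 74.7 and 95.1 CPM against 32.2, 36.6 and 38.0 CPM. It fell with a log2FC of -1.35 ± 0.147 (SE, edgeR adjusted p = 0.000141). Neither gene had a heart that crossed into the range of the other group.

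Bckdha, the E1 alpha subunit that carries the phosphorylation sites (chromosome 7, 25629946 to 25658981), was at 205, 171 and 199.5 CPM in the control hearts and at 100.4, 92.6 and 133 CPM in the Immtfl/fl-Myh6-MCM hearts. Its log2FC was -0.82 (95% interval -1.17 to -0.47, adjusted p = 0.00295 from edgeR), which did not pass the fold threshold. Immtfl/fl-Myh6-MCM heart 3 was the highest of its group. Of the 1899 exonic bases of Bckdha, 1171 overlap B3gnt8 on the opposite strand. The counts of B3gnt8 were 546, 551 and 553 in controls against 379, 366 and 548 in Immtfl/fl-Myh6-MCM hearts, again with heart 3 highest. The strand setting of the counting was not given in the sources used here. Reads of these neighbours therefore cannot be told apart, and their part in the value of Bckdha was not tested.

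Within each heart, the ratio of Bckdhb to Dbt was not separated between the groups. There were 0.563, 0.575 and 0.584 Bckdhb counts per Dbt count in the control hearts and 0.598, 0.503 and 0.542 in the Immtfl/fl-Myh6-MCM hearts, with overlapping ranges (log2 difference -0.07, two-sided exact permutation test, p = 0.5). Bckdha was higher relative to both partners. There were 1.99 to 2.30 Bckdha counts per Dbt count in the control hearts and 3.11, 2.53 and 3.50 in the Immtfl/fl-Myh6-MCM hearts (log2 difference 0.51, exact permutation test, p = 0.1, adjusted 0.133). Against Bckdhb the ratio was 3.54 to 3.99 in control hearts and 5.02 to 6.45 in Immtfl/fl-Myh6-MCM hearts. The overlap with B3gnt8 applies to both of these ratios.

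Of the enzymes that switch the complex, the phosphatase fell and the kinase did not pass the fold threshold. Ppm1k, the phosphatase that activates the dehydrogenase (chromosome 6, 57506502 to 57535468, minus strand), was at 192, 125 and 178 CPM in the control hearts and at 18.1, 20.1 and 13.2 CPM in the Immtfl/fl-Myh6-MCM hearts. Every Immtfl/fl-Myh6-MCM heart was far below the lowest control heart, and 10.4% of the control mean remained. The log2FC of Ppm1k was -3.27 ± 0.218 (SE, edgeR adjusted p = 1.18e-05), the lowest value among the 10 genes.

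Bckdk, the kinase that inactivates the dehydrogenase (chromosome 7, 127904082 to 127910221), was at 88.7, 68.8 and 87.1 CPM in the control hearts and at 56.5, 55.7 and 59.3 CPM in the Immtfl/fl-Myh6-MCM hearts. The groups did not overlap, and the gap between them was smaller than the range among the control hearts. Its log2FC was -0.51 (95% interval -0.80 to -0.22, adjusted p = 0.0122 from edgeR), short of the fold threshold. Without control heart 1 or control heart 3 the adjusted p of Bckdk was 0.0564 or 0.0535.

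The ratio of kinase to phosphatase counts reversed its side of 1. It was 0.461, 0.551 and 0.489 in the control hearts and 3.12, 2.76 and 4.49 in the Immtfl/fl-Myh6-MCM hearts. Phosphatase counts were therefore the larger in every control heart and kinase counts in every Immtfl/fl-Myh6-MCM heart. The log2 difference was 2.76 (two-sided exact permutation test, p = 0.1, adjusted 0.133). Being a ratio within a library, it does not depend on how the libraries were scaled. It is a ratio of transcripts, and the phosphorylation of the dehydrogenase was not analysed here.

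Along the leucine branch, the first enzyme fell furthest. Ivd, isovaleryl-CoA dehydrogenase (chromosome 2, 118861954 to 118882909, plus strand), which hands its electrons to the electron-transfer flavoprotein, was at 431, 405 and 433 CPM in the control hearts and at 92.7, 98.4 and 83.2 CPM in the Immtfl/fl-Myh6-MCM hearts. The control hearts were tightly grouped and 21.6% of their mean remained. The log2FC of Ivd was -2.21 ± 0.119 (SE, edgeR adjusted p = 3.66e-06).

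Mccc1, the biotin-carrying subunit of methylcrotonyl-CoA carboxylase (chromosome 3, 35959312 to 36000678, minus strand), was at 154, 122 and 149 CPM in the control hearts and at 58.5, 62.7 and 52.6 CPM in the Immtfl/fl-Myh6-MCM hearts. It fell with a log2FC of -1.29 ± 0.134 (SE, edgeR adjusted p = 0.000109). Mccc1 was the called member closest to the fold threshold. Of its 10952 exonic bases, 94, 321 and 198 overlap 3 genes on the opposite strand.

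Auh, methylglutaconyl-CoA hydratase, which is also known as an RNA-binding protein (chromosome 13, 52835119 to 52929681, minus strand), was at 70.6, 65.4 and 68.2 CPM in the control hearts and at 37.3, 38.6 and 37.2 CPM in the Immtfl/fl-Myh6-MCM hearts. The spread within each group was small and the groups lay well apart. With a log2FC of -0.85 (95% interval -1.09 to -0.62, adjusted p = 0.000297 from edgeR), Auh was the member just outside the fold threshold, next to Bckdha. There were 6.10, 6.20 and 6.35 Ivd counts per Auh count in the control hearts and 2.49, 2.55 and 2.24 in the Immtfl/fl-Myh6-MCM hearts.

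**Figure D3:**
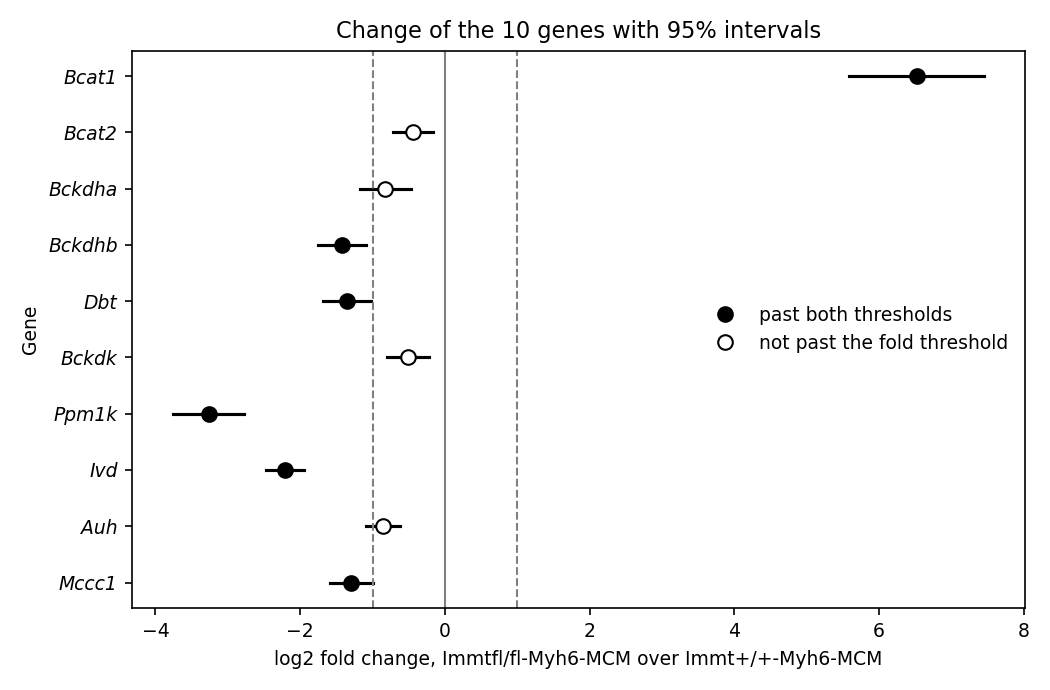
Points are the log2 fold changes of the 10 genes (Immtfl/fl-Myh6-MCM over control) from edgeR, and lines are 95% intervals. Filled points passed both thresholds, open points did not pass the fold threshold, and dashed lines mark log2FC of -1 and 1. Bcat1 stands alone on the right at 6.52, and Ppm1k (-3.27) and Ivd (-2.21) lie furthest to the left.

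The order of the members by level changed as well. Per kilobase of annotated exons, control hearts held most Bckdha (mean 101 CPM per kilobase, 90.3 to 108), then Ivd (76.8, range 73.6 to 78.6). Bckdhb, Ppm1k, Dbt, Bckdk and Bcat2 followed with means between 28.9 and 21.7 CPM per kilobase, and the ranges of neighbours in that order overlapped. Mccc1 (11.2 to 14.1), Auh (mean 7.10) and Bcat1 (0.0535) closed the order, each apart from its neighbours.

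In Immtfl/fl-Myh6-MCM hearts, Bckdha was again first at 57.2 CPM per kilobase. Ivd (16.6), Bcat2 (15.5 to 16.3) and Bckdk (15.5) came next with overlapping ranges, followed by Bckdhb (10.8) and Dbt (10.6), which also overlapped. Mccc1 (5.29) and Bcat1 (4.99) overlapped, and Auh (3.93) came before Ppm1k (2.85), which had moved from rank 4 to rank 10. The labels describe capture by oligo-dT with molecular identifiers and fragmentation after second-strand synthesis. The evenness of read cover along a transcript was not given in the sources used here. Levels per kilobase carry that doubt. The fold changes of a single gene do not use its length.

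Control heart 2 was the lowest control heart for each of the 9 lower members and the highest for Bcat1. Without it, the same count of 1 member rose and 5 fell, and the median log2FC of the members was -1.15.

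The fall of the cardiomyocyte markers is set beside the values of the members, whose cells of origin whole-heart RNA does not give. The 7 marker genes had a median log2FC of -1.28, from -2.15 (Pln, a calcium pump inhibitor) to -0.18 (Tnnt2, a sarcomere protein). Set against the geometric mean of these markers within the same heart, a comparison added after the data had been seen, 5 members were higher in every Immtfl/fl-Myh6-MCM heart than in any control heart, 2 were lower and 3 overlapped. The lower ones were Ppm1k, with a log2 difference of -1.96 against the markers, and Ivd, with -0.90. The ones that overlapped were Bckdhb (-0.11), Dbt (-0.03) and Mccc1 (0.02). The higher ones were Bcat1 (8.04), Bcat2 (0.88), Bckdk (0.81), Bckdha (0.47) and Auh (0.46). Each of the 7 that did not overlap had the smallest exact permutation p of 0.1. The share of all genes that do not overlap on this scale was not computed. Because the markers themselves fell, a gene with no change in CPM would also lie higher on this scale. On this scale the median over the 10 members was 0.24. The direction of Bcat2, Bckdha, Bckdk and Auh therefore depends on the reference that is used. The falls of Bckdhb, Dbt and Mccc1 in CPM were not seen on this scale, where their groups overlapped. The part of cardiomyocyte content in the lower values was not tested further, and the markers are themselves genes whose expression can change within a cardiomyocyte.

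**Figure D4:**
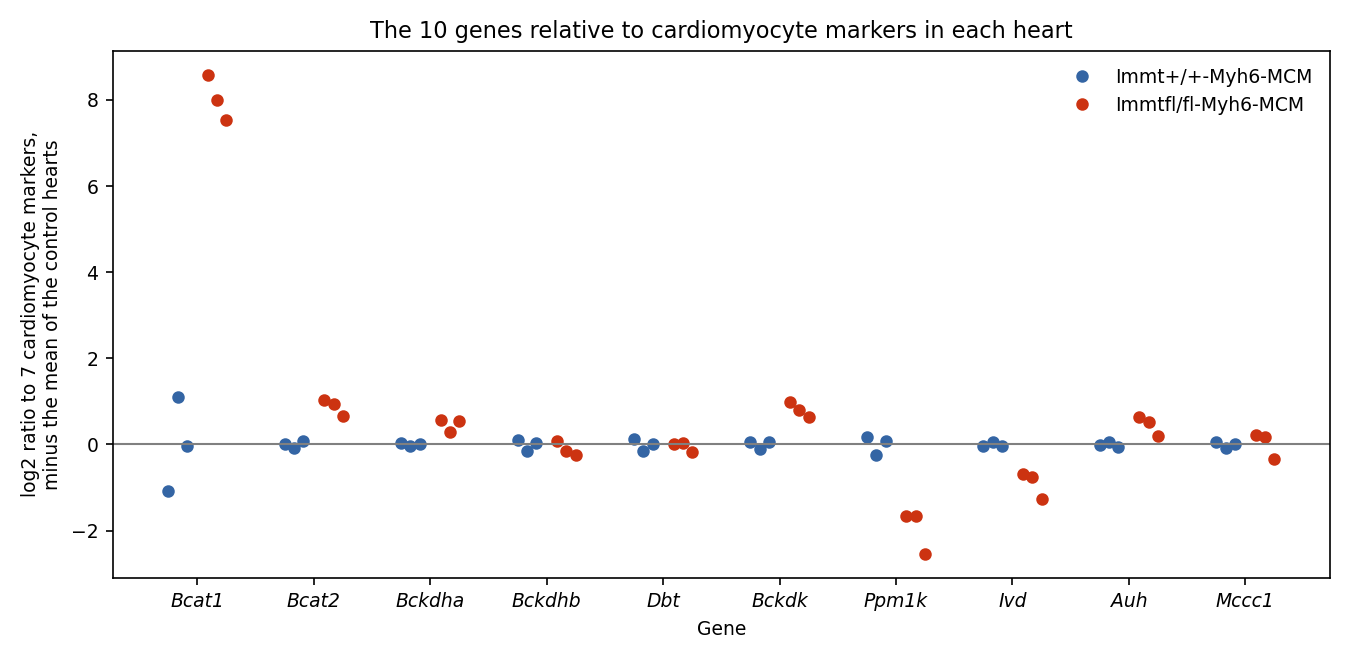
Each point is 1 heart, and the vertical axis is the log2 ratio of a gene's counts to the geometric mean of 7 cardiomyocyte markers, minus the mean of the control hearts. Ppm1k and Ivd lie below the control hearts (blue), Bckdhb, Dbt and Mccc1 lie among them, and Bcat1, Bcat2, Bckdha, Bckdk and Auh lie above.

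The remaining enzymes of the pathway, 17 genes from the E3 subunit to the entry into the citric acid cycle, all had a log2FC below 0. Of these, 6 fell, 0 rose and 11 did not pass both thresholds, and by adjusted p alone 13 were lower. Among all genes tested, 9.91% were higher and 10.6% lower by both thresholds, and 19.9% and 18.5% by adjusted p alone. These shares also stand beside the lists that follow. The median log2FC of the 17 genes was -0.71, against -0.0012 over all genes and -1.28 over the cardiomyocyte markers. The count of the 17 that fell was 4 without control heart 1 or without Immtfl/fl-Myh6-MCM heart 1, where Hibadh and Aldh6a1 were between -0.97 and -0.91. Mccc2, the partner subunit of Mccc1, was at 62.7, 48.4 and 60.7 CPM against 17.0, 15.3 and 15.9 CPM, with a log2FC of -1.83 ± 0.139 (SE, edgeR adjusted p = 2.07e-05). The ratio of Mccc1 to Mccc2 counts was 2.46 to 2.52 in control hearts and 3.31 to 4.09 in Immtfl/fl-Myh6-MCM hearts.

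On the propionyl-CoA route, through which valine and isoleucine carbon reaches succinyl-CoA, Mcee, the methylmalonyl-CoA epimerase, was at 44.1, 37.9 and 40.3 CPM against 13.8, 13.8 and 14.9 CPM. Its log2FC was -1.52 (adjusted p = 3.77e-05 from edgeR). Mut, the methylmalonyl-CoA mutase that needs vitamin B12, was at 220.2, 127 and 202 CPM against 59.8, 66.2 and 56.1 CPM, with a log2FC of -1.59 (adjusted p = 0.000327 from edgeR). These are consecutive enzymes, and neither had overlapping groups.

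In valine breakdown, Aldh6a1, the methylmalonate-semialdehyde dehydrogenase, was at 400.0, 324 and 345 CPM against 151, 179 and 184 CPM, with a log2FC of -1.06 (adjusted p = 0.000321 from edgeR). Hibadh, which acts just before it, had a log2FC of -1.03, and Acat1, the acetoacetyl-CoA thiolase at the end of isoleucine and ketone breakdown, had -1.19. Both passed the thresholds with all hearts included. Hibch, the valine hydrolase before Hibadh and named here after its values were seen, was at 80.4 to 95.2 CPM in control hearts and 80.3 to 89.8 CPM in Immtfl/fl-Myh6-MCM hearts, with a log2FC of -0.04 (95% interval -0.31 to 0.23), or 0.035 without control heart 1. Dld, the E3 subunit shared with the pyruvate and 2-oxoglutarate dehydrogenases and likewise named after its values were seen, had a log2FC of -0.33 (95% interval -0.65 to 0.00, adjusted p = 0.106 from edgeR).

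Among 7 genes that supply the cofactors biotin, cobalamin and lipoate, 2 fell and 0 rose. Mmaa, which helps load cobalamin onto methylmalonyl-CoA mutase, was at 31.2 to 40.3 CPM in control hearts and 13.5 to 15.1 CPM in Immtfl/fl-Myh6-MCM hearts, with a log2FC of -1.27 (adjusted p = 0.000204 from edgeR). Lipt2, which starts the attachment of lipoate, had a log2FC of -1.16 (adjusted p = 0.0305 from edgeR) at levels of at most 5.76 CPM, and its adjusted p was 0.145, 0.0633 and 0.0989 without control heart 1, Immtfl/fl-Myh6-MCM heart 1 and Immtfl/fl-Myh6-MCM heart 2. The list had a median log2FC of -0.70.

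**Figure D5:**
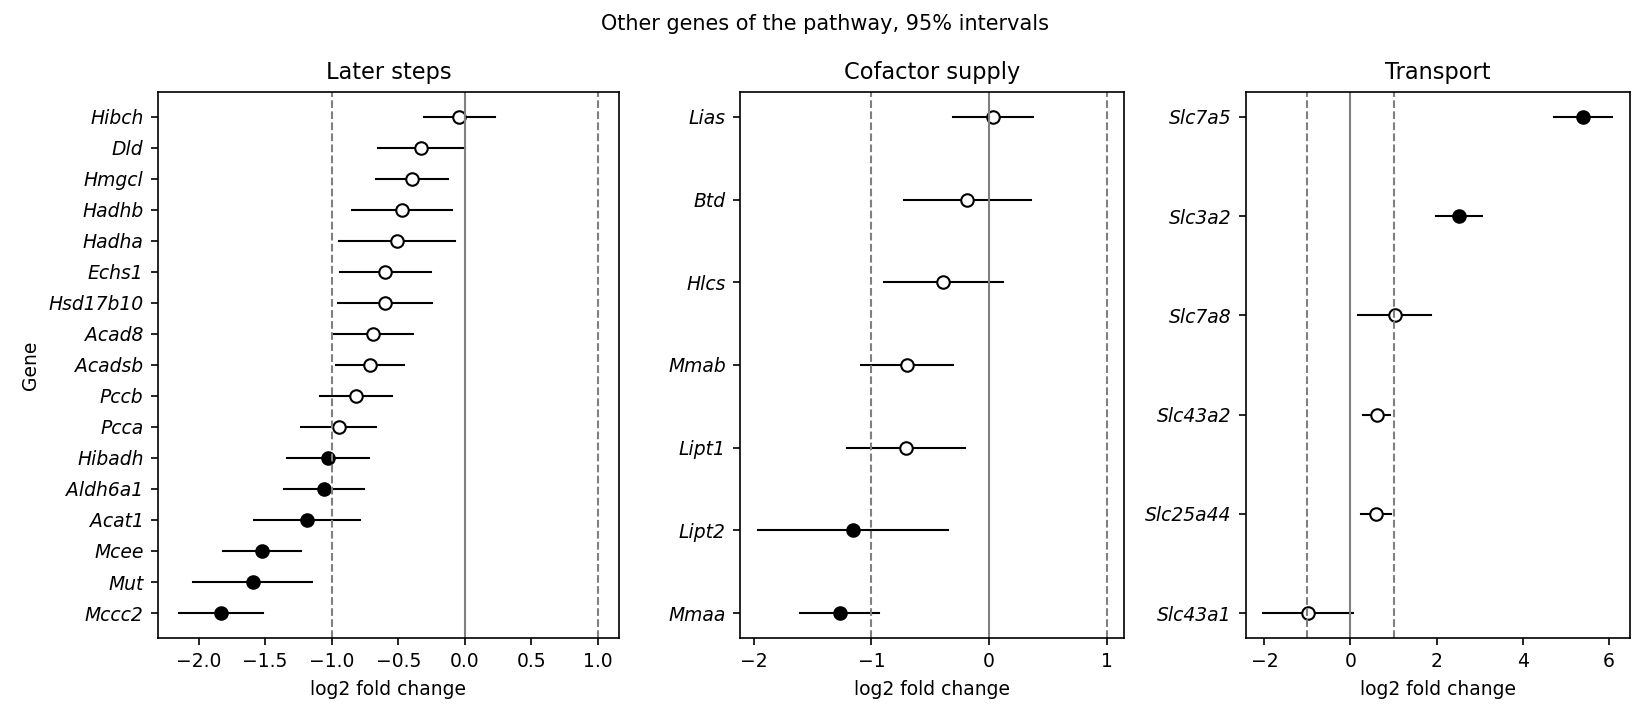
Points are log2 fold changes (Immtfl/fl-Myh6-MCM over control) from edgeR with 95% intervals for 17 genes of later steps, 7 of cofactor supply and 6 of transport. Filled points passed both thresholds and dashed lines mark log2FC of -1 and 1. Filled points lie to the left among later steps and cofactor genes, and to the right among transporters (Slc7a5 at 5.41 and Slc3a2 at 2.52).

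Of 6 transporter genes, 2 rose, 0 fell and 4 did not pass both thresholds, and by adjusted p alone 4 were higher. Slc7a5, the light chain of the LAT1 exchanger that brings leucine into cells, was at 3.19, 7.24 and 5.65 CPM in the control hearts and at 243, 237 and 203 CPM in the Immtfl/fl-Myh6-MCM hearts. Its log2FC was 5.41 ± 0.297 (SE, edgeR adjusted p = 6.92e-06). Slc3a2, the heavy chain that carries Slc7a5 to the membrane, was at 27.4, 51.8 and 29.9 CPM against 206, 205 and 215 CPM, with a log2FC of 2.52 ± 0.236 (SE, edgeR adjusted p = 9.13e-05). Both chains of the exchanger had groups far apart.

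Slc43a2, another leucine transporter, had a log2FC of 0.61 (adjusted p = 0.00732 from edgeR). Slc25a44, the mitochondrial carrier for branched-chain amino acids, was at 23.2, 23.4 and 26.9 CPM against 32.4, 34.3 and 44.7 CPM, with a log2FC of 0.60 (adjusted p = 0.0137 from edgeR). Both were short of the fold threshold. Without control heart 1 the adjusted p of Slc25a44 from edgeR was 0.0604. Slc7a8, a second light chain of Slc3a2 and named after its values were seen, had a log2FC of 1.03 with an adjusted p of 0.0575 from edgeR and overlapping groups, and it passed both thresholds without control heart 2 or without Immtfl/fl-Myh6-MCM heart 3 (log2FC 1.25). Slc7a8 also passed them with the DESeq2 Wald test (adjusted p = 0.0101), while its adjusted p from edgeR was 0.161 without control heart 1. Slc43a1, a further leucine transporter named after its values were seen, was at 3.27, 5.41 and 2.88 CPM against 1.37, 1.10 and 3.37 CPM, with a log2FC of -0.98, an adjusted p of 0.124 from edgeR and overlapping groups. Without Immtfl/fl-Myh6-MCM heart 3, 1 transporter passed both thresholds as lower.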

How the data were processed

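Each heart gave 1 library. Per the labels, poly-A RNA was captured with oligo-dT primers that hold molecular identifiers. The paper's methods name Illumina for library preparation and sequencing of the hearts taken at this time, and they do not describe this capture. The submitters' processing notes list STAR 2.7.11, SAMtools 1.22.1, featureCounts, Subread 2.1.1 and edgeR 4.0.16 with GRCm38 and mm10. What each tool did, how strand was handled and whether identifiers were used was not given in the sources used here. The authors deposited raw counts per gene, which were used here. The deposited signal (normalized counts), the deposited FPKM, and the authors' own log2 fold changes and p-values were not used.

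Of 27021 genes, 17146 passed filterByExpr of edgeR 4.0.16 (minimum count 10, minimum total 15) in R 4.3.3. Groups were compared with TMM factors (0.884 to 0.939 in control hearts, 1.04 to 1.14 in the others), robust quasi-likelihood F tests (prior count 0.125) and Benjamini-Hochberg adjustment over the 17146 genes. The SE of a log2FC is its size over the square root of F. CPM used the TMM factors. Ratios used raw counts and exact permutation tests, which cannot go below 0.1 with 3 hearts against 3. The scripts were tested on simulated data.

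The members, gene lists and tests were chosen with earlier results of these data known. Named genes were Immt, every member, called genes of the later steps, cofactor and transport lists (4 in full at most), up to 4 of each other list by smallest p, and members nearest the thresholds. A gene that this rule names is not reported here. Alternatives were RLE and upper-quartile factors, DESeq2 1.42.0, other filters, no fold threshold, removal of mitochondrially encoded genes, a term for Xist-expressing hearts, a replicate block, each library left out and, added after seeing the data, the marker reference.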

Additional observations from a re-analysis of the deposited data

How the results depend on the processing

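Under 15 other settings, the 10 members gave 150 repeated results. Of these, 146 kept direction and call, that is, whether both thresholds were passed, and 4 passed only because the fold threshold had been dropped. Uncalled members did not always keep their side of the p threshold. With single hearts left out, the adjusted p from edgeR reached 0.0846 for Bcat2 and 0.0564 for Bckdk. Over these 15 settings the count of members that rose stayed at 1, and 5 fell in each except the dropped fold threshold. The marker reference gave no calls and is not among these settings. Dropping the fold threshold gave 6590 genes called (3418 higher, 3172 lower), 9 members fallen, 13 later-step genes lower and 4 transporters higher. Upper-quartile factors moved the median log2FC of all genes by -0.10 and that of the members to -1.18. Relative to the 7 cardiomyocyte markers, added after seeing the data, the members' median turned to 0.24. The markers fell, so a gene with no change in CPM would also lie higher on that scale. With libraries left out in turn, the members' median ran from -1.15 to -1.03, the count of transporters lower from 0 to 1, and that of later-step genes lower from 4 to 7. The log2FC of Hibch ran from -0.091 to 0.035 (without control replicate 1). Per kilobase, the difference in Bcat1 share was 23.5 percentage points.

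Same-numbered hearts had deviations from their group means correlated at 0.014, -0.038 and 0.014 across genes. With 3 hearts per group these values cannot decide whether the replicate numbers pair the hearts. The heart with high Xist counts was number 3 in both groups. With the number as a replicate block, 3256 genes were called, with 1 member risen, 5 fallen and a members' median log2FC of -1.07. Not every heart correlated best with its own number.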

Other observations

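The amino group removed from branched-chain amino acids ends in glutamate and its partners, and of 7 such genes 1 fell and 0 rose past both thresholds. Gpt, the cytosolic alanine aminotransferase, was at 29.8, 13.8 and 36.5 CPM in control hearts and 5.33, 5.07 and 8.72 CPM in Immtfl/fl-Myh6-MCM hearts (log2FC -2.07, adjusted p = 0.00336 from edgeR). Gpt2, its mitochondrial counterpart, had a log2FC of 0.99 (adjusted p = 0.00716), with 42.3, 44.7 and 47.7 CPM against 110.5, 99.3 and 57.8 CPM. Got1, the cytosolic aspartate aminotransferase, had a log2FC of 0.89 (adjusted p = 0.00698 from edgeR), and both were short of the fold threshold. Gpt2 passed it without control heart 3 (1.03) or Immtfl/fl-Myh6-MCM heart 3 (1.23), and Got1 without Immtfl/fl-Myh6-MCM heart 1 or 2 (1.02 each).

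The pyruvate and 2-oxoglutarate dehydrogenases are built like the branched-chain complex, and pyruvate dehydrogenase is likewise switched by kinases and phosphatases. Of 13 genes of these complexes, 1 rose and 4 fell. Pdp2, a phosphatase that activates pyruvate dehydrogenase, was at 55.5, 33.8 and 47.4 CPM in control hearts and 6.40, 6.42 and 6.65 CPM in Immtfl/fl-Myh6-MCM hearts (log2FC -2.81, adjusted p = 1.16e-05 from edgeR). Pdpr, a regulatory subunit of the pyruvate dehydrogenase phosphatase, had a log2FC of -1.04, and it did not pass the fold threshold without control heart 1, Immtfl/fl-Myh6-MCM heart 1 (-0.92) or Immtfl/fl-Myh6-MCM heart 2. Of the kinases, Pdk2 fell (-1.29) from 331 to 457 CPM in control hearts to 149 to 185 CPM, and Pdk3 rose (2.22) from at most 2.89 CPM to at least 10.6 CPM. Pdp1, the other phosphatase, named after its values were seen, fell with a log2FC of -1.31. Pdk4, named likewise, was at 811, 1396 and 373 CPM against 2029.6, 2198 and 5653 CPM, with a log2FC of 1.94 and an adjusted p of 0.0508 from edgeR, 1.30 without Immtfl/fl-Myh6-MCM heart 3, and 2.48 (adjusted p = 0.0262) without control heart 2. Pdk4 also passed both thresholds with the DESeq2 Wald test (adjusted p = 0.0240) and with a stricter filter in edgeR (adjusted p = 0.0416). Its adjusted p from edgeR was 0.163 with no filter and 0.123 with the replicate block.

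Among 5 regulators, Atf4, a stress-response factor of amino acid metabolism, rose from 50.4 to 59.3 CPM to 405 to 626 CPM (log2FC 3.22, adjusted p = 4.33e-06 from edgeR). Myc rose with a log2FC of 3.50, and Ppara, a nuclear receptor of lipid oxidation, fell with -1.34. Klf15, known in mouse heart and muscle as an activator of branched-chain amino acid breakdown genes, had a log2FC of -0.59 (adjusted p = 0.0455 from edgeR) with overlapping groups. Its adjusted p from edgeR was 0.0631 with the replicate block, 0.0508 with the term for Xist-expressing hearts and up to 0.145 over the settings.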
